A study of Mus musculus with 7 samples.

Results

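Distal Pygo2-only peaks are the chromatin sites of Pygo2 that lie far from any protein-coding gene and carry no β-catenin peak. They were taken from the Pygo2 peak list of the BA2 library as every peak that shares no base with a β-catenin BA2 peak, whose centre lies outside every protein-coding gene body and more than 50 kb from the nearest protein-coding gene start or end (mm10, RefSeq genes of GRCm38.p6). Of 7150 Pygo2 peaks, 6877 shared no base with a β-catenin peak, and 455 of these were distal (6.62%, 95% Wilson interval 6.05 to 7.23%). The rule thus used the Pygo2 and β-catenin peak positions, so the number, the positions and the distances of the members are a description and carry no test. All peaks come from branchial arches of wild-type mouse embryos at 10.5 days post coitum, pooled from many embryos and cross-linked with EGS and formaldehyde. Chromatin was precipitated with antibodies against Pygo2 (library Pygo2-BA2) or against β-catenin (library b-cat-BA2), and the peaks of both were called against the IgG library from BA1, which carries the label pre-immune serum. What BA1 and BA2 separate is not given in the labels. Each list rests on 1 library, so no value below has a replicate error, and intervals cover counting error only. A peak list holds no marker level, so the labelled tissue could be examined only through genes beside peaks, as given below.

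Pygo2 is a nuclear PHD-finger protein that reads methylated histone tails and is bridged by Bcl9 to β-catenin, the effector of canonical Wnt signalling. Sequence far from protein-coding genes is where many long-range enhancers of developmental genes lie, often in gene deserts beside transcription factor and signalling genes. Such sequence also holds many genes of long non-coding RNAs (lncRNAs), which are transcribed from start sites of their own. The branchial arches are the embryonic swellings, filled mainly by neural crest and mesoderm mesenchyme, that form the jaws, the neck and the great vessels of the heart.

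The members with a known sequence were those that touched a lncRNA start window, that is, the stretch from 250 bases before to 50 bases after an annotated start site (RefSeq, GRCm38.p6). There were 13 such members among the 444 on chromosomes covered by the window table. For 6 of them the whole peak of 167 bases lay in a window, and these are shown first because the full peak could be read. All touch an annotated start, so their base composition need not be that of the other distal Pygo2 peaks. They are followed by the parts inside a window of 3 members in the gene deserts beside Mn1 and beside Tcf7l2, a gene for a DNA-binding partner of β-catenin. Each is printed 5′ to 3′ on the strand of the named lncRNA, and capitals mark CG dinucleotides.
Gm35940, chr9:41805638-41805804, plus strand: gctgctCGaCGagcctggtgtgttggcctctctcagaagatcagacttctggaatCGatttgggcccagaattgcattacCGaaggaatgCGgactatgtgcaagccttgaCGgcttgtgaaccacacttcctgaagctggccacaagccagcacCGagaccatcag
9430078K24Rik, chr12:79925515-79925681, minus strand: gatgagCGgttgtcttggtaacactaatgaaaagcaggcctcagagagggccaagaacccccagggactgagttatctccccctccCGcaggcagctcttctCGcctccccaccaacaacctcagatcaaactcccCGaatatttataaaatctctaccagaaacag
Mir100hg, chr9:41474663-41474829, plus strand: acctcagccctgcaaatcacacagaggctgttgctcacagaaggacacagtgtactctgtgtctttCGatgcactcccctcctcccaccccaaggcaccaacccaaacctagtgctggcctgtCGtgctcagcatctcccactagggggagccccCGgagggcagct
Gm13847, chr6:31665954-31666120, plus strand: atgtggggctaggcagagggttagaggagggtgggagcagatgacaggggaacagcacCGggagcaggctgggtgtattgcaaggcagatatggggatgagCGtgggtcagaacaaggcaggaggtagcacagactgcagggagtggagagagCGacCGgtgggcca
Gm33448, chr6:100163370-100163536, minus strand: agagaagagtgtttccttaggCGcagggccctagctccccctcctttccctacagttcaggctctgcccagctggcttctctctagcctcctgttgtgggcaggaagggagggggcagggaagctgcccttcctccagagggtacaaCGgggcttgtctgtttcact
Gm34590, chr15:36937871-36938037, plus strand: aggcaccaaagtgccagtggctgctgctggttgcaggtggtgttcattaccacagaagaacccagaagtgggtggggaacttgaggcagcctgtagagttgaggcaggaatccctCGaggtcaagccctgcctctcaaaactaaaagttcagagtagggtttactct
Gm42156, chr5:111944353-111944483, plus strand: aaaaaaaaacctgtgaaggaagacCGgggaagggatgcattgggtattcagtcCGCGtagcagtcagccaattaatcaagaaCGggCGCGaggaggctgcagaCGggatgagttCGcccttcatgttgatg
Gm36223, chr5:111509256-111509327, plus strand: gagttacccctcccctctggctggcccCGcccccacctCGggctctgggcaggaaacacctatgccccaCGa
Gm32028, chr19:56177632-56177784, plus strand: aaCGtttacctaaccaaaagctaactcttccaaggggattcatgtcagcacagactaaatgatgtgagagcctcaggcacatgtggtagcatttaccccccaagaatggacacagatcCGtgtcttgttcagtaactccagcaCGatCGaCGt
The Gm35940 peak holds 7 CG dinucleotides at 54.5% G and C, and its centre lies 78 bp before 1 annotated start of Gm35940 and 38 bp before the start of LOC115486408 on the other strand. The Mir100hg peak holds 3 CG dinucleotides at 59.9% G and C and is centred 147 bp before 1 annotated start of Mir100hg, inside the gene. The Gm34590 peak holds 1 CG dinucleotide at 52.7% G and C, 41 bp before the start. The Gm42156 stretch holds 8 CG dinucleotides at 51.9% G and C, and its peak is centred 2 bp after the start.

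These start windows held more G, C and CG than most lncRNA start windows far from genes. Taking for each of the 13 members the window that holds most of its peak, the G and C content ranged from 42.7 to 79.3% with a median of 54.0%. The 3366 lncRNA windows centred in distal sequence had a median of 45.7% (quartiles 41 and 50%), all 11588 lncRNA windows 48.3%, and the 21263 windows of protein-coding genes 56.3%. The number of CG dinucleotides per window of 300 bases ranged from 3 to 49 around a median of 7, against medians of 3 in distal lncRNA windows, 4 in all lncRNA windows and 13 in protein-coding windows. Of the 13 windows, 5 held 10 or more CG dinucleotides (38.5%), against 6.45% of the distal lncRNA windows. The window with 49 CG dinucleotides is that of Gm34507, 85.9 kb from Arid1b, and the next, with 22, is that of Gm12830, 84.4 kb from the forkhead gene Foxd2. With 13 windows chosen by their peaks, these values are given without a test.

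**Figure D1:**
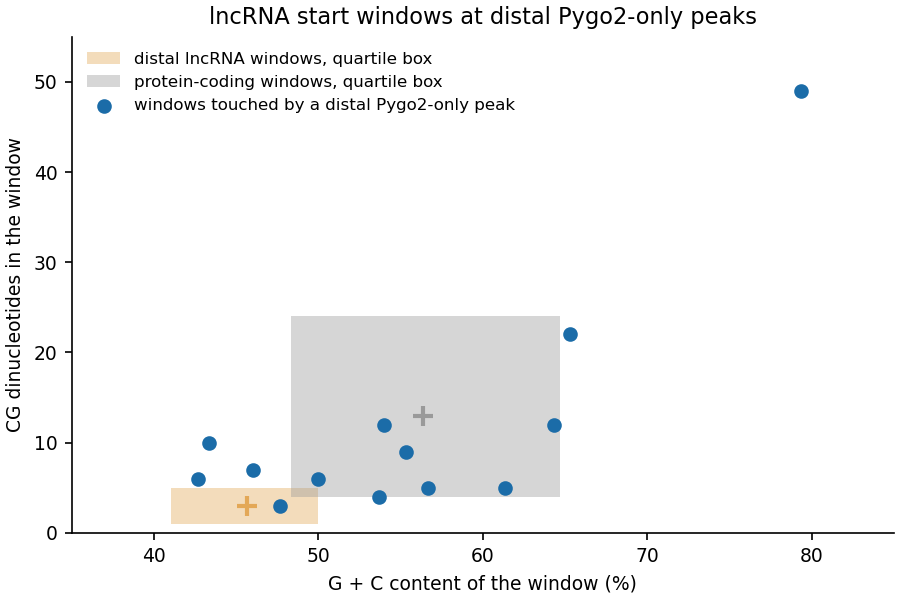
G and C content (x axis, percent) against the number of CG dinucleotides (y axis) of the 300-base lncRNA start windows touched by the 13 members (points), with the quartile boxes and medians (crosses) of all distal lncRNA windows and of protein-coding windows. Most points lie above the box of the distal lncRNA windows, whose upper quartile is 5 CG dinucleotides.

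Short binding motifs were counted in the same windows on both strands. The TCF/LEF letters CTTTGAT or CTTTGAA, by which β-catenin is brought to DNA, were in 0 of the 13 windows, against 13.0% of the distal lncRNA windows and 10.6% of all lncRNA windows. GGGCGG, bound by SP and KLF factors, was in 4 of 13 (30.8%) against 6.80% of the distal lncRNA windows and 46.2% of protein-coding windows. GGAATG, bound by TEAD factors, was in 5 of 13 (38.5%) against 17.4% of the distal lncRNA windows, and in the Gm35940 peak above it starts at base 85. The CTCF letters CNAGGNGGC or CNAGANGGC were in 2 of 13 against 6.68%, and the Gm42156 stretch above holds the match CGAGGAGGC at base 89. The homeodomain letters TAATTA and the AP-1 letters TGACTCA or TGAGTCA were in none of the 13, against 9.77% and 6.77%. Shares of the other motifs are not given here. With 13 windows, which also held more G and C than the distal lncRNA windows, no motif difference was tested. A match describes letters and no binding, the 16 motifs overlap in part (the MEIS letters TGACAG and the E-box letters CAGATG share bases in the Gm13847 peak), and the sequence of the other 442 members was not analysed here.

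Distal Pygo2-only peaks sat late in the deposited list. The Pygo2 library held 15009636 tags, a peak needed at least 10 tags, and the header totals give a mean of 15.5 tags per peak over the whole list. The deposited score is 1 for every peak, and the order of the list, which the headers do not explain, was used in its place. The list is made of 80 runs of up to 554 peaks, each ordered by chromosome name and start, so positions within a run rank nothing and only the order of the runs could. Members first appear in run 36, and their median run was 74, against 69 for all Pygo2 peaks. The first member is number 323 of the list, whereas the first gene-end peak is number 1, the first near intergenic peak number 11 and the first peak inside a gene number 12. The median position of the members was 77.6% of the list (quartiles 58.0 and 90.3%), against 59.8% for the 1127 Pygo2-only intergenic peaks within 50 kb of a gene end, 63.4% for the 2166 inside genes and 35.7% for the 3129 within 1 kb of a gene end. Members made up 0.280% of the first 715 listed peaks (2 peaks) and 16.9% of the last 715 (121 peaks, interval 14.4 to 19.8%). In the first 50% of the list stood 77 members, 16.9% of them, against 40.5% of the near intergenic peaks. Distal Pygo2 peaks that did share a base with a β-catenin peak numbered 21 (4.41% of the 476 distal Pygo2 peaks, interval 2.90 to 6.65%), and their median position was 47.6%. The share of peaks with a β-catenin overlap was 3.51% among near intergenic peaks, 3.17% inside genes and 4.28% at gene ends, and these intervals overlap that of the distal peaks.

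**Figure D2:**
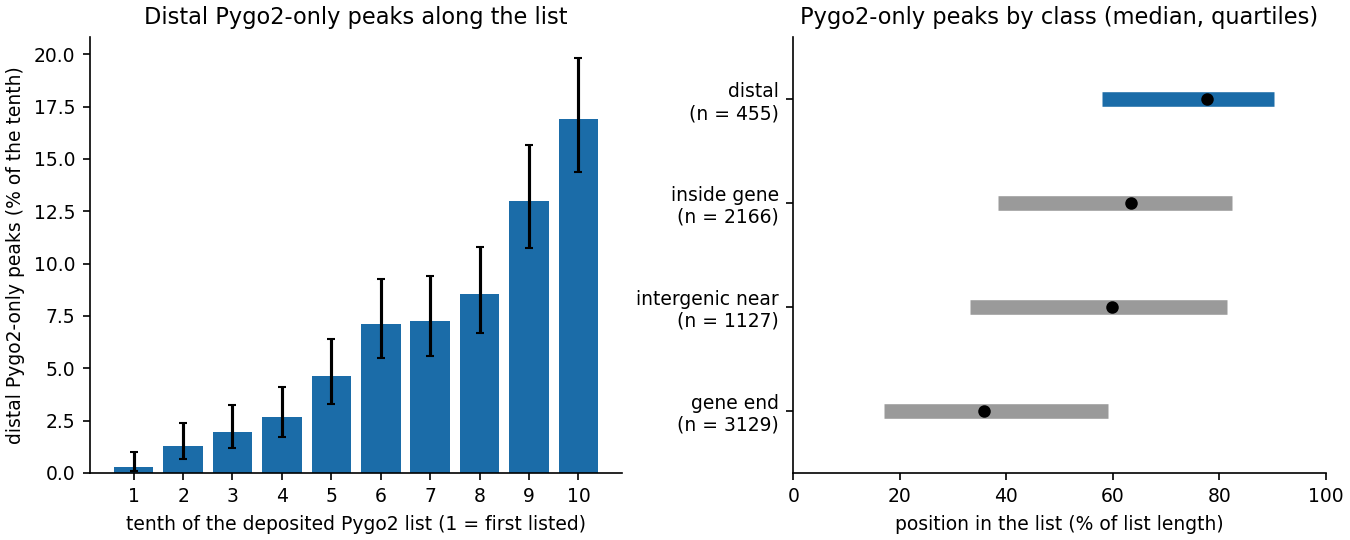
Left, share of each of 10 equal parts of the Pygo2 list (x axis, 1 is the first 715 peaks) that is a distal Pygo2-only peak (y axis, percent; bars with 95% Wilson intervals), which goes from 0.280 to 16.9%. Right, median (point) and quartiles (bar) of the list position, in percent of the list, of the 4 classes of Pygo2-only peaks; the distal class lies latest, at a median of 77.6%.

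Pygo2-only peaks were sparser the farther from genes the sequence lay, and the distal peaks were the sparse end of that range. Between protein-coding genes, Pygo2-only peaks stood at 2.59 per Mb at 1 to 10 kb from a gene end and at 1.40 per Mb at 10 to 50 kb. Distal peaks stood at 0.729 per Mb at 50 to 100 kb (161 peaks, exact Poisson interval 0.621 to 0.850), 0.597 at 100 to 200 kb (145 peaks), 0.399 at 200 to 500 kb (123 peaks) and 0.111 beyond 500 kb (26 peaks, interval 0.0725 to 0.163). The intervals of the 50 to 100 kb and 100 to 200 kb bands overlap, and the other neighbouring bands do not. The median distance of a member to the nearest protein-coding gene end was 137 kb (quartiles 76.1 and 244 kb). The nearer end was the 5′ end of the gene for 181 of the 338 members whose nearest gene has a known strand (53.6%, interval 48.2 to 58.8%). In the distal sequence itself the 5′ end is the nearer one over 52.3%, inside that interval.

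**Figure D3:**
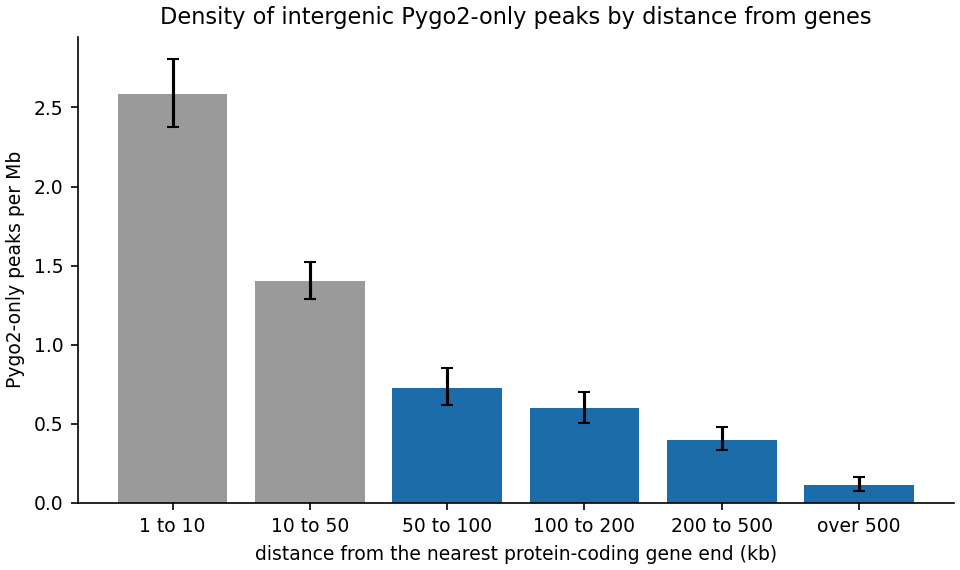
Pygo2-only peaks per Mb of intergenic sequence (y axis, bars with exact Poisson intervals) by distance from the nearest protein-coding gene end (x axis, kb); grey bars are peaks within 50 kb and blue bars the distal peaks. The blue bars go from 0.729 to 0.111 per Mb.

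All sequence between protein-coding genes and more than 50 kb from their ends, called distal sequence here, came to 1006 Mb in 2967 stretches, so members stood at 0.452 per Mb. Members occurred on every autosome and on X: chromosome 2 held 47 (0.909 per Mb of distal sequence), chromosome 9 held 29 (0.851 per Mb) and chromosome 13 held 35 (0.780 per Mb). At the low end, chromosome 15 held 11 (0.259 per Mb), chromosome X held 3 (0.0385 per Mb of 77.9 Mb) and chromosome Y none of 65.2 Mb. On autosomes alone the density was 0.524 per Mb. How much of this sequence short reads can be mapped to was not used here.

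Most stretches with a member held a single one. Of the 2967 stretches, 298 held a member (10.0%): 216 held 1 and 82 held 2 or more. The 2669 stretches without a member cover 80.9% of the distal sequence. The 19 stretches with 4 or more members held 103 of the 455 (22.6%) in 1.40% of the distal sequence, a share chosen by the count itself. Stretches of up to 100 kb held 1.06 members per Mb, those of 100 to 300 kb 0.674, those of 300 to 1000 kb 0.576 and longer ones 0.222. Closely spaced members were rare: 39 of 455 had another member within 10 kb, in 18 pairs and 1 group of 3. That group lies at chr2:74119350-74129463 between Atp5g3 and Lnpk, a gene desert beside the HoxD cluster known for distal limb enhancers, 207 kb from Atp5g3 and 385 kb from Lnpk. The closest pairs were as little as 0.377 kb apart, near the minimum of 332 bp set by the peak caller, so a pair can be parts of 1 wider site.

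The interval that held most members lies between Mn1 and Cryba4 on chromosome 5. Mn1 encodes a transcriptional co-regulator needed for the bones of the skull and palate. Its 10 members stood at 14.5 per Mb over 689 kb of distal sequence, from 52.3 kb to 487 kb beyond Mn1. The first listed was chr5:111602225-111602391 (list position 2012), 145 kb from Mn1, and the last listed chr5:111509256-111509422 (position 5064), the peak whose Gm36223 part is printed above. The 10 peaks thus ran over the middle of the list, from 28.1 to 70.8%, with none in its first 10%.

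The next interval, between Rps24 and Zmiz1 on chromosome 14, held 9 members in 861 kb (10.5 per Mb). Zmiz1 encodes a transcriptional coactivator of the PIAS-like family. The members stood 249 kb to 843 kb from Rps24. Of the 9, 6 lay in lncRNA genes (24.2% of all 455 members did), among them Zmiz1os1 on chr14:25255014-25406786. Their list positions ran from 30.0 to 98.4%.

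On chromosome 6, 8 members stood between Npvf and the predicted gene Gm38821 in 469 kb (17.1 per Mb). Without predicted genes the next gene is Nfe2l3, and the HoxA cluster, whose far enhancers in cranial neural crest lie on this side, is beyond it. This interval held the 2 earliest listed members of the 5 intervals, chr6:51170311-51170477 (position 1152) and chr6:51076814-51076980 (position 1781). The peak at chr6:51172948-51173114, at position 522 of the list, is 2.64 kb further on and missed the 50 kb limit at 49.9 kb from Gm38821. None of the 8 lay in a non-coding gene, as against 24.4% of all 455 members, and with 8 peaks no difference was tested.

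Between Cdh11 and Cdh5 on chromosome 8, 8 members stood in 1216 kb (6.58 per Mb). Cdh11 encodes a cadherin of mesenchyme and migrating neural crest, and Cdh5 the cadherin of endothelial cells. Of these members, 5 lay nearer to Cdh11, from 293 kb, and 3 nearer to Cdh5, from 78.4 kb. On the same chromosome, 8 members stood in the 300 kb of distal sequence beyond Foxl1, at the end of the cluster of the forkhead genes Foxf1, Foxc2 and Foxl1 (26.7 per Mb). They lay 50.4 kb to 348 kb from Foxl1, and the pair at chr8:121294206-121294957 was the first listed (position 2733). A further member, chr8:120959017-120959183, lay 125 kb from Foxf1. None of these 5 intervals held a β-catenin peak in its distal sequence. The same is true of most stretches, since only 128 of all 2967 held one.

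**Figure D4:**
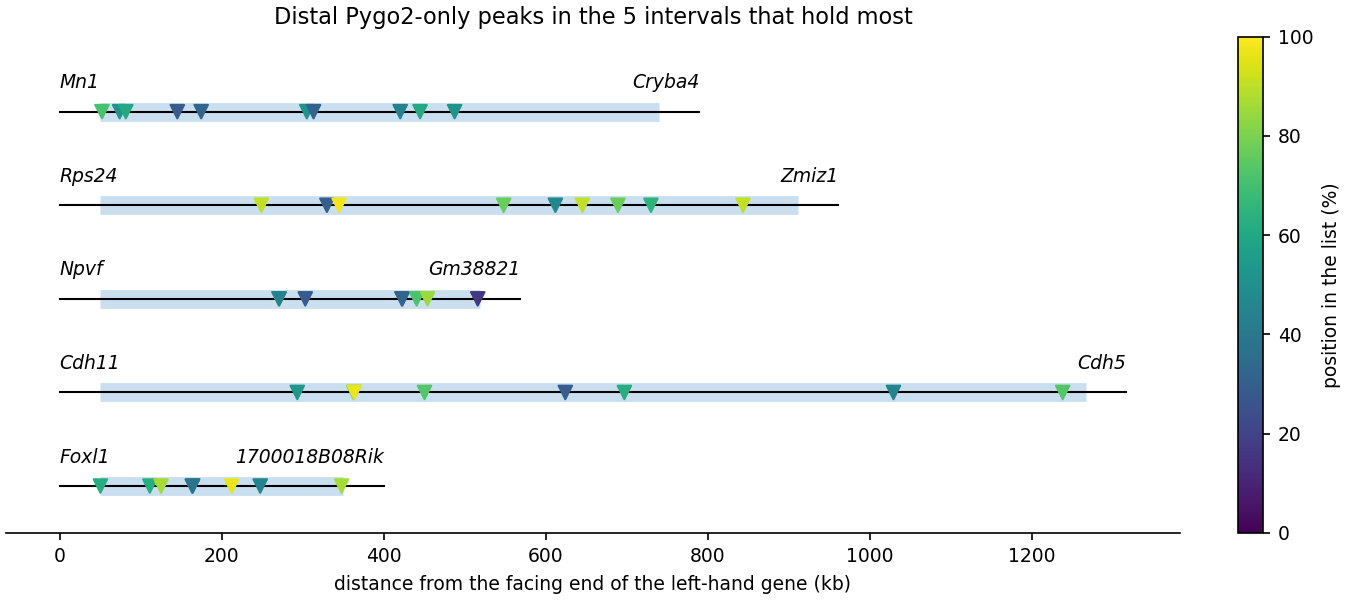
Distal Pygo2-only peaks (triangles, coloured by their position in the list in percent) in the 5 intervals between protein-coding genes that hold most of them, drawn to scale from the facing end of the left-hand gene (x axis, kb); the pale band is the distal sequence more than 50 kb from both genes. From top to bottom the intervals hold 10, 9, 8, 8 and 8 peaks, and triangles of pairs under 1 kb apart overlap.

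The 15 first-listed members lay beside genes of several kinds; their order within a run follows the chromosome name. The first, chr16:77400355-77400521 (position 323), lay inside the lncRNA Mir99ahg, 284 kb from Usp25 and 901 kb from Cxadr, and the 14th, chr16:77421701-77421867, in the same lncRNA 21.3 kb away. The 2nd, chr7:73606903-73607069 (position 528), was 65.2 kb from Chd2, a chromatin remodeller gene, and 133 kb from Fam174b. The 3rd, chr2:166427079-166427245 (position 827), was 139 kb from Prex1. The 4th, chr2:30718987-30719153 (position 946), was 76.5 kb from 1700001O22Rik, 110 kb from Cstad and had a β-catenin peak centred 0.279 kb away, next to it without overlap. The 5th was 94.2 kb from Aldoart1, and the 6th, chr5:118465479-118465645 (position 980), 94.8 kb from Med13l, a Mediator subunit gene mutated in heart defects. The 7th, chr4:114821751-114821917 (position 1128), lay in Gm12830, 84.4 kb from Foxd2. The 8th was the member of the Npvf interval named above, and the 9th, chr8:25343329-25343495, was 87.0 kb from Tacc1 and 175 kb from Fgfr1, the nearest gene on its other side once the predicted gene Gm39147 is left out. The 10th to 13th were 60.0 kb from Tmpo, 54.9 kb from Lrrc74a, 251 kb from Zfhx3 and 53.0 kb from Wnt7b. The 15th, chr1:137900565-137900731 (position 1689), was 162 kb from Ptprc. Of these 15, 8 lay in a lncRNA gene, against 110 of all 455 members (24.2%), and the difference was not tested.

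The farthest member from any protein-coding gene end stood 2213 kb from Pik3c3 and late in the list, at 99.2%. The next 2, chr2:46443431-46443597 and chr2:46443953-46444119, form a pair 1326 kb from Zeb2, a repressor gene of neural crest, with list positions 4844 and 1708. Of the others, chr14:91705308-91705474 stood 1308 kb from Pcdh9 at 98.5% of the list, and chr6:10592524-10592690 stood 1308 kb from Ndufa4 at 84.8%. At the other edge of the class, the members just past the limit stood 50.3 kb from Rad51b, 50.4 kb from Foxl1 and 50.4 kb from Ryk. The peaks just short of it were 49.9 kb from Gm38821, 49.9 kb from Gm52612 and 49.8 kb from Map3k1.

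Most members had no β-catenin peak within 10 kb. The median distance to the next β-catenin peak was 712 kb (quartiles 238 and 1917 kb). The next Pygo2 peak of any kind was at a median of 110 kb. These distances depend on the size of the lists, 1079 β-catenin and 7150 Pygo2 peaks. The distance expected from list size was not computed, so they do not show that members avoid β-catenin. Within 10 kb, 13 members had a β-catenin peak (2.86%, interval 1.68 to 4.83%), and the closest was centred 0.174 kb away, beside the Gm35940 peak printed above. Of 128 stretches of distal sequence with a β-catenin peak, 42 also held a member, and these held 77 of the 455 members. Of all 2967 stretches, 298 held a member (10.0%), a lower share. Stretches were not matched for length, and the difference was not tested. The 2 lists share their IgG control, so a site counted as Pygo2-only passed the threshold for 1 antibody and missed it, or was not tested, for the other.

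Members lay in lncRNA genes more often than distal sequence as a whole. Inside a lncRNA were 110 of the 455 members (24.2%, interval 20.5 to 28.3%), whereas lncRNA genes cover 10.1% of the distal sequence, a ratio of 2.40. That cover is over all distal sequence, of which 80.9% lies in stretches without a member. The cover close to members was not measured. Near intergenic Pygo2-only peaks lay in a lncRNA in 22.0% of cases. The share was 32.5% of the 77 members in the first 50% of the list (interval 23.1 to 43.5%) and 22.5% of the later 378 (interval 18.6 to 27.0%), and these intervals overlap. The 13 members that touch a lncRNA start window are 2.93% of 444, whereas a peak of this width would touch one from 0.150% of distal positions, a ratio of 19.5. The corresponding share of near intergenic peaks was 4.30%. Inside or within 1 kb of any non-coding gene or pseudogene were 28.8% of the members and 33.8% of the 1127 near intergenic peaks, an odds ratio of 0.792 that missed the threshold of 0.05 (two-sided p = 0.0575 by Fisher's exact test, which compares 2 sets of peaks of 1 library). With peaks inside such a gene only, the odds ratio was 1.03. The pooled share combines kinds of gene with unlike values: within 1 kb of a lncRNA lay 27.7% of the members and 27.8% of the near peaks (odds ratio 0.996), whereas within 1 kb of other non-coding genes or pseudogenes lay 7 members (1.54%, interval 0.747 to 3.14%) and 95 near peaks (8.43%, interval 6.95 to 10.2%). This split was chosen after its values were seen and carries no test, and the density of such genes in near sequence was not measured. A transfer RNA gene lay within 1 kb of 1 of the 455 members (0.220%) and of 46 of the 1127 near intergenic peaks (4.08%), and a small nuclear RNA gene of 0 members (interval up to 0.837%) and of 20 near peaks. Such genes are rare in distal sequence: 0.0129% of it lies within 1 kb of a transfer RNA gene and 0.0614% within 1 kb of a small nuclear RNA gene.

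Several of these lncRNAs are hosts of microRNAs, small RNAs that repress messenger RNAs through a short seed. Of the 116 lncRNA genes that held a member, 6 enclose a mature microRNA of the RefSeq table, and 7 members lay in them. The share of all lncRNA genes that enclose a microRNA was not measured. The count is thus a description and does not set the members apart. Mature sequences from microRNA genes with known developmental roles are printed 5′ to 3′, with the seed (bases 2 to 8) in capitals. They show which seeds lie beside distal peaks. For Mir1a-1 only the 5p sequence was found in the host, so the seed of its other strand is not shown. A role of the gene need not belong to the printed strand.
mmu-miR-9-5p: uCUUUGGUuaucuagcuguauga
mmu-miR-9-3p: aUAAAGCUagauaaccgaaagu
mmu-miR-100-5p: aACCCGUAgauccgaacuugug
mmu-miR-125b-5p: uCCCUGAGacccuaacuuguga
mmu-miR-1a-1-5p: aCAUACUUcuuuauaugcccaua
Separate hosts of miR-9, a microRNA of neural progenitors, Mir9-3hg and C130071C03Rik, each held 1 member, so the same miR-9-5p and miR-9-3p seeds recur at both. In Mir9-3hg (chr7:79500026-79534403) the member chr7:79518853-79519019 lay 13.6 kb from the microRNA, at list position 4415. In C130071C03Rik, the host of Mir9-2, the member chr13:83729570-83729736 lay 9.18 kb from the microRNA and 62.6 kb from Mef2c, at position 2453. Mir100hg (chr9:41376526-41615185) held 2 members: that at an annotated start inside the gene is printed above, and the other, chr9:41524372-41524538, lay 6.99 kb from miR-100-5p and 57.5 kb from miR-125b-5p. In Mir1a-1hg, host of a microRNA of heart and skeletal muscle, the member chr2:180397570-180397736 (position 4922) lay 8.59 kb from miR-1a-1-5p and 62.2 kb from Gata5, a cardiac GATA factor gene. Further hosts were 2610307P16Rik with miR-6368 and 5730522E02Rik with miR-6372. Other named non-coding genes with a member were BC006965 (chr11:112709994-112710160, 72.1 kb from Sox9), Lncenc1 (chr13:97442292-97442458), Morrbid (chr2:128340010-128340176) and Rnls, listed as a transcribed pseudogene (chr19:33391994-33392160).

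Genes of arch patterning, heart development and signalling bordered distal Pygo2-only peaks more often than protein-coding genes at large. Ribosomal protein genes, a list with no tie to arch development, did so too (5.26%, and 44.4% of the 9 that border distal sequence). The excess is thus not particular to the developmental lists. A gene was counted when it was the next protein-coding gene on either side of a member. This held for 568 of 21887 protein-coding genes (2.60%). Because a gene can be counted only if it borders distal sequence, the share was also taken of such genes: 568 of 4743, or 12.0%. No p is given, since the lists were chosen with earlier results of these data known and genes beside large deserts are reached more often. A flanking gene need not be the target of a peak. With the nearer flanking gene only, 1.52% of protein-coding genes and 9 arch, 8 heart, 7 Wnt and 9 signalling genes were counted. With flanking genes within 500 kb these were 2.17% of all and 12, 11, 11 and 13 genes. From the members in the first 50% of the list alone, they were 0.498% of all and 4, 3, 5 and 1 genes.

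Of 56 transcription factor genes of arch patterning and craniofacial development, 16 bordered a member (28.6%, interval 18.4 to 41.5%), which is 38.1% of the 42 that border distal sequence. The nearest members lay 57.6 kb from Nr2f2, an orphan nuclear receptor gene that bordered 3 members, 74.5 kb from Alx4, a homeobox gene of the upper face, and 83.4 kb from Dlx2, a homeobox gene of the arches (chr2:71630061-71630227). Others lay 120 kb from Pitx1, which marks the lower jaw mesenchyme, 125 kb from Foxf1 and 143 kb from Msx1. Members stood at 0.836 per Mb in the distal sequence beside these genes. In all distal sequence the density was 0.452 per Mb, and on autosomes alone 0.524 per Mb. The stretches beside these genes had a median length of 270 kb, against 133 kb for all stretches. Density differed with stretch length, as given above, and no comparison at matched length was made for this or any other list.

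Of 56 genes of heart and outflow tract development, 14 bordered a member (33.3% of the 42 that border distal sequence, 0.812 members per Mb). They included the cardiac transcription factor genes Gata5 at 62.2 kb and Mef2c at 62.6 kb, the latter with 3 members. Vegfa, an endothelial growth factor gene, was at 74.9 kb, Cxcr4, a chemokine receptor gene, at 95.2 kb, Fgf10, a growth factor gene of the second heart field, at 102 kb, and Hey2, a Notch target, at 137 kb. Isl1, the second heart field gene, which is also a neuronal marker here, bordered 4 members, the nearest at 205 kb (chr13:116514810-116514976).

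Among 90 genes of the Wnt pathway and its targets, 12 bordered a member (13.3%, interval 7.79 to 21.9%), which is 36.4% of the 33 that border distal sequence, with 1.42 members per Mb there. The stretches beside these genes had a median length of 135 kb, and shorter stretches held more members per Mb among all distal sequence. By role, the ligand gene Wnt7b was 53.0 kb from chr15:85634693-85634859, and the receptor genes Ryk and Fzd1 were 50.4 kb and 104 kb from a member. The feedback inhibitor gene Nkd1 was at 66.7 kb (chr8:88454585-88454751). The cyclin D genes Ccnd1 and Ccnd2, which drive entry into the cell cycle, were at 91.0 kb (chr7:145030767-145030933, position 1812) and 99.1 kb. Ctnnb1, the β-catenin gene itself, bordered the member chr9:120776742-120776908 at 157 kb. The partners Lef1 and Tcf7l2 were at 291 kb (chr3:130818888-130819054, position 1740) and 244 kb, and in both cases another gene was nearer to the peak. By the choice of members none of these peaks overlaps β-catenin.

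The highest of these shares among the pathway lists was that of BMP, FGF, hedgehog and Notch signalling, with 15 of 66 genes (22.7%), 44.1% of the 34 that border distal sequence and 1.60 members per Mb. The hedgehog co-receptor genes Gas1, Cdon and Boc all bordered members: Gas1 4 of them, the nearest at 54.3 kb (chr13:60231777-60231943), Cdon 3 at 58.1 kb or more (chr9:35363362-35363528) and Boc 1 at 74.1 kb (chr16:44632855-44633021). Gli2, a transcription factor gene of the same pathway, was 57.2 kb from chr1:118776794-118776960. Fgf10 and the receptor gene Fgfr2 were each at 102 kb. Of 48 genes of neural crest specification and migration, 10 bordered a member (20.8%, 27.0% of the 37 that border distal sequence, 0.586 members per Mb). That density is close to the 0.524 per Mb of all distal sequence on autosomes. Sox9, a regulator of crest and cartilage, bordered 3 members from 72.1 kb, Slit3 was at 109 kb, Tfap2c at 145 kb, Ets1 at 229 kb, Robo2 at 245 kb and Sox5 at 256 kb. These lists share genes, so their counts are not independent.

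**Figure D5:**
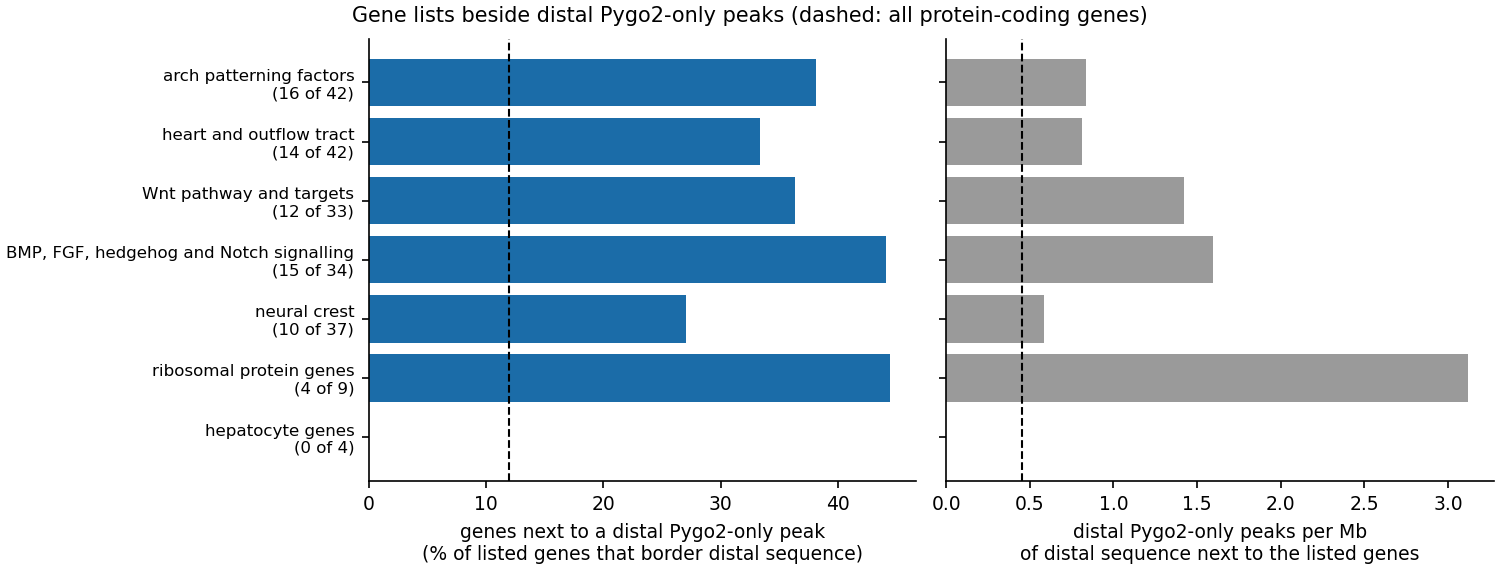
Left, percent of the listed genes bordering distal sequence that are next to a distal Pygo2-only peak (x axis), with the counts beside each list. Right, distal Pygo2-only peaks per Mb of distal sequence next to the listed genes; dashed lines mark all protein-coding genes, at 12.0% and 0.452 per Mb. Bars carry no error, and the ribosomal and hepatocyte bars rest on 9 and 4 genes. Densities are not matched for stretch length.

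Lists of other kinds held few genes that border distal sequence. Of 76 ribosomal protein genes, a list with no tie to arch development, 4 bordered a member (5.26%, interval 2.07 to 12.8%, against 2.60% of all genes). Only 9 of them border distal sequence, and among these the share was 44.4% and the density 3.12 members per Mb, at or above the values of the developmental lists. Of the 15 members in that sequence, 9 lie in the interval beside Rps24 described above. The 4 genes were Rpl34 at 88.6 kb, Rplp1 at 110 kb, Rpl14 at 202 kb and Rps24 at 249 kb. Rpl34 borders the same member as Lef1, and Rpl14 the same member as Ctnnb1. The ribosomal list is thus not independent of the Wnt list. Of 26 hepatocyte genes, used as a list foreign to the tissue, 0 bordered a member (interval up to 12.9%), and 4 border distal sequence. Among markers of cell types of the arches, 2 of 10 neural crest genes (Sox9 and Ets1), 1 of 9 epithelial genes (Pax1 at 531 kb), 1 of 8 endothelial genes (Cdh5), 1 of 7 blood genes (Ptprc, with 5 members), 1 of 7 neuronal genes (Isl1) and 0 of 6 arch muscle genes bordered a member. With so few genes, no difference between these cell types could be told.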

How the data were processed

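ChIP-seq peak lists of 2 of the 7 libraries were used, 1 for Pygo2 and 1 for β-catenin. Per the file headers, the authors called peaks with HOMER findPeaks (factor style) in 1 library each, against the IgG BA1 library although the lists' names mention IgG with BA2. Thresholds were a false discovery rate of 0.001, at least 2-fold over IgG and over 10 kb around each peak, with Poisson p-values up to 1e-04. Bowtie2, Bowtie and HOMER and the build mm10 appear, without roles, in the submitters' processing notes. The deposited score is 1 for every peak; widths are 167 bp (Pygo2) and 169 bp (β-catenin).

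Positions are 1-based. The 21887 protein-coding genes of a RefSeq table (GRCm38.p6) set the classes; it gives no exons. Strand came from a table of start windows that covers 27025 genes and not all chromosomes. No genome sequence was used, so the planned motif and G and C comparisons over all members were not run and only start windows were searched. All 428 listed genes matched. Shares carry 95% Wilson intervals. Python 3.11.15, NumPy 2.4.6, pandas 2.3.3, SciPy 1.17.1 and Matplotlib 3.10.9 were used, and the classification, overlap and Fisher steps were tested on simulated data.

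Members and lists were chosen with earlier results of these data known; distal sequence, densities, list runs and start windows were added after the data were examined. Named were the 15 first-listed and 5 farthest members, 3 peaks on each side of the limit, the 5 fullest intervals, up to 6 genes per list by distance and 10 members in named non-coding genes; other names were chosen after their values were seen. Alternatives were other distance limits, overlap rules, gene sets and the first 50% of the list.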

Additional observations from a re-analysis of the deposited data

How the results depend on the processing

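With 1 library per list there is no replicate spread, and depth (at least 10 tags a peak) limits which distal sites were listed. No paired analysis was possible because each group has 1 library, and for the same reason no replicate could be left out. The series also holds Pygo2 and β-catenin libraries labelled BA1, in which the members were not checked. The number of members was 704 with a limit of 25 kb, 294 with 100 kb, 105 when all genes of the table, non-coding ones included, had to be 50 kb away, and 77 in the first 50% of the list, against 455. It was 461 with an overlap of at least 50% of the peak, 448 without peaks within 1 kb of a β-catenin centre, 455 from the peak edge and 486 without predicted genes. The share inside a non-coding gene only was 24.4% (odds ratio 1.03 against near peaks, in place of 0.792 within 1 kb); neither passed, nor did the other 4 settings (Fisher's exact test). With the nearest flanking gene only, 9 arch, 8 heart, 7 Wnt, 9 signalling and 0 epithelial genes bordered a member (1.52% of all protein-coding genes). Within 500 kb the epithelial count was 0 (2.17% of all genes). In the first 50% of the list the counts were 4 arch, 3 heart, 5 Wnt, 1 signalling, 2 neural crest, 2 ribosomal, 0 epithelial, 0 neuronal and 0 neural crest marker genes, against 0.498% of all genes. The alternatives that needed a genome sequence were not run.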
